A study of Mus musculus with 6 samples.

Results

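The AP-1 family genes described here are Fos, Fosb, Fosl1, Fosl2, Jun, Junb, Jund, Batf and Maff, 9 genes in all. Their open chromatin was taken as every ATAC-seq peak that overlapped the body of one of these genes or the 30 kb on either side of it (mm10, gene models of GENCODE M21). The peaks of 6 lists merged into 102 such regions, out of 112852 regions over the whole genome. ATAC-seq marks open chromatin by letting the transposase Tn5 insert sequencing adapters there. The study compared 3 control samples with 3 samples of the same cells treated for 24 h with MMF (mycophenolate mofetil), a drug that blocks guanine nucleotide synthesis. The cells are L-GMPs, leukemia stem cells with the surface markers of granulocyte-macrophage progenitors, from mice that had received hematopoietic progenitors transduced with MLL-AF9. The labels give the genotype of every sample as WT, the tissue as blood and the cell type as AML LSCs. Control cells carry the MLL-AF9 fusion as well, and all cells were grown in medium with mouse IL3, so the comparison is of treated with untreated leukemic cells in culture. The design text gives its purpose as finding differences in accessibility with MMF. The labels number the samples but do not say whether they come from separate mice or cultures, so the p-values below measure the spread between these samples, which may be technical.

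AP-1 is a dimer of basic leucine zipper proteins. A Jun protein (Jun, Junb or Jund) pairs with another Jun protein or with a Fos protein (Fos, Fosb, Fosl1 or Fosl2), and the dimer binds TGACTCA or the related TGACGTCA. Fos, Fosb, Jun and Junb are immediate-early genes, which mitogens and stress induce within minutes, while Jund is made at a steady level in many cells. Batf pairs with Jun proteins but lacks a transactivation domain, and Maff is a small Maf protein, also without one, that pairs with CNC proteins such as Nfe2l2. In myeloid cells AP-1 proteins act beside PU.1 and C/EBP factors, and Jun and Fos rise as monocytes and macrophages form.

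The sequences below are those around the summits of 6 regions described further on. The regions upstream of Batf and 7.5 kb upstream of Maff passed the test among regions with a peak in every list, that downstream of Fos passed in a fit that allows a missing peak, and that upstream of Fosb had peaks in MMF lists only. The last 2 did not pass, and are shown as the largest difference at Maff and the largest downward difference of any window. The region called lower, 14.0 kb downstream of the Fosb start, lies in a UTR and is not printed. Each is 150 bases of the reference genome GRCm38 (RefSeq), 75 on each side of the summit, on the plus strand. Capitals in the first 4 mark the letters TTGCNNAA, the core of a C/EBP site, on either strand, and in the sequence upstream of Fosb also TGACGTCA. Capitals in the fifth mark GAGGAAGT, the letters of a PU.1 site. No motif searched lies in the last, from the Junb window.
Batf, 27.1 kb upstream of the start, chr12:85659527-85659676: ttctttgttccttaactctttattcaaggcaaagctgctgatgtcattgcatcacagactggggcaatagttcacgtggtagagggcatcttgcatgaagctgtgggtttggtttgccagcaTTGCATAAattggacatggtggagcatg
Fos, 15.5 kb downstream of the start, chr12:85489352-85489501: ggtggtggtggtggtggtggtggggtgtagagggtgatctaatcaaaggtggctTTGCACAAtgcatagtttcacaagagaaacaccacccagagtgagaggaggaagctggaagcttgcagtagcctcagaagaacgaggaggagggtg
Maff, 7.5 kb upstream of the start, chr15:79339008-79339157: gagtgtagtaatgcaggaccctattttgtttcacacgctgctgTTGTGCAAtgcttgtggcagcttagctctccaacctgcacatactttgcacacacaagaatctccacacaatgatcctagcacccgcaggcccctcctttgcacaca
Fosb, 28.8 kb upstream of the start, chr7:19338796-19338945: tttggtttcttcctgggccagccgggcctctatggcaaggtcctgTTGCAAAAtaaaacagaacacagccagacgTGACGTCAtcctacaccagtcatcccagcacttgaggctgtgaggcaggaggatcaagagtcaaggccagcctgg
Maff, 23.0 kb upstream of the start, chr15:79323500-79323649: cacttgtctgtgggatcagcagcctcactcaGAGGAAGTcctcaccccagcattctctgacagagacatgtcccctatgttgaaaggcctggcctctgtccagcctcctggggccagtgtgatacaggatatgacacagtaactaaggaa
Junb, 25.7 kb downstream of the start, chr8:84952926-84953075: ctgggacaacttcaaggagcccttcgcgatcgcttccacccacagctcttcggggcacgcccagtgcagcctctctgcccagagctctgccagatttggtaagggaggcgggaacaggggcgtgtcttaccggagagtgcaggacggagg

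Accessibility near the AP-1 genes changed at few places. Of the 102 regions, 60 had a peak in all 6 lists (shared), 2 had one in all 3 MMF lists and in no control list (gained), and 0 showed the opposite (lost). Over all regions, 36.5% were shared, 6.001% were gained and 0.182% were lost. The 2 gained regions lay upstream of Fosb and downstream of Maff. The other 40 regions were in some lists only, and 26 of the 102 regions were in more MMF than control lists against 12 in more control lists, beside 46.9% and 10.6% of all regions. Fosb had the most regions, 20, and Jun the fewest, 5. By summit, 53 regions lay between genes, 20 in introns, 17 in exons and 12 in noncoding genes. For 62 of the 102 the member was the protein-coding gene with the nearest start, from 10 of 10 at Fos and 5 of 5 at Jun to 3 of 9 at Fosl1, so the windows of Fosl1, Junb, Jund and Fosb also hold open chromatin of their neighbours.

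For each peak the reads over its summit were divided by the reads that a stretch of 150 bp would hold by chance in that list, and this normalised summit signal is given below in multiples of that background. Signal could be compared in shared regions, which were tested with limma on the log2 scale with Benjamini-Hochberg adjustment over all 41182 shared regions. With MMF, 2 of the 60 shared AP-1 regions were higher at an adjusted p under 0.05 and 1 was lower. Over all shared regions 18.6% were higher and 0.969% were lower. Of the 60, 27 had a higher mean with MMF and 33 a lower one, with a median log2 difference of −0.04, whereas 64.6% of all shared regions had a higher mean and their median was 0.17. When each list was centred on the median of its own shared regions, the split became 1 higher and 12 lower of 60, beside 6.90% and 13.9% of all, so the direction of small differences below depends on this scaling. Only the region upstream of Batf was higher under both scalings. A second test, on normal scores of each region's rank by fold enrichment within its list, which compares regions with each other, called 1 of the 60 higher and 0 lower (1.44% and 0.425% of all), and at an unadjusted p under 0.05 it had 1 higher and 13 lower, where the signal test had 9 higher and 3 lower. At that threshold the rank test had 12.0% of all shared regions higher and 11.2% lower, and the signal test 28.9% and 3.72%.

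**Figure D1:**
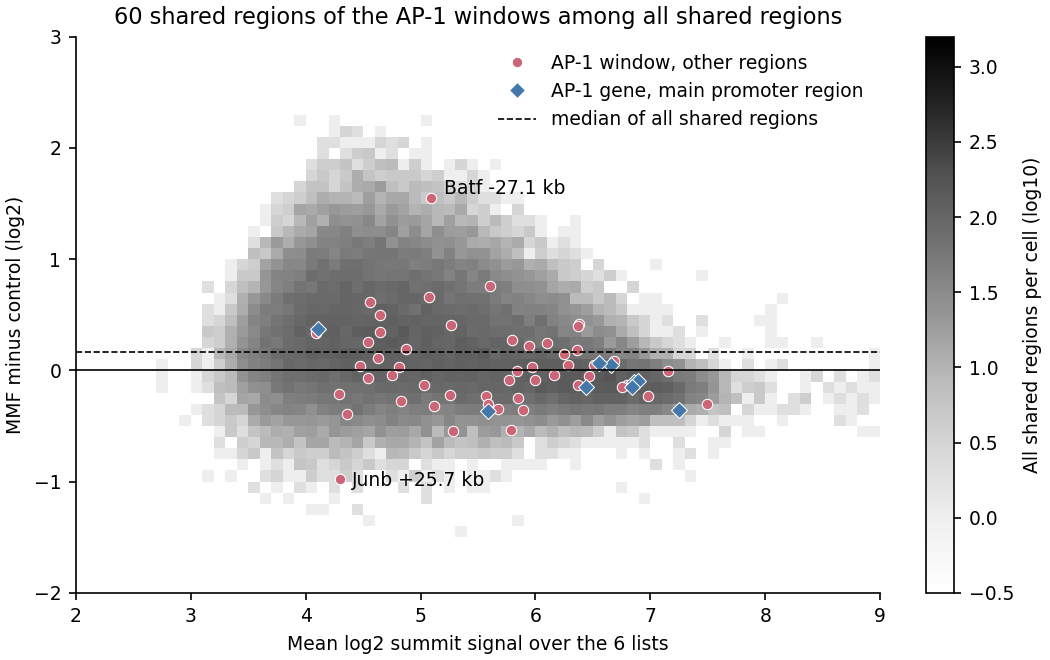
The horizontal axis is the mean log2 normalised summit signal of a region over the 6 lists and the vertical axis is MMF minus control on the log2 scale. Grey cells count all 41182 shared regions, blue diamonds are the 9 main promoter regions and red circles are the other 51 shared regions of the AP-1 windows. The region 27.1 kb upstream of Batf lies highest at 1.55 and the region 25.7 kb downstream of Junb lowest at −0.98, and the dashed line is the median of all shared regions, 0.17.

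The 9 main promoter regions, the strongest region within 1000 bp of a start of each gene, were open in all 6 lists. The summit signal is taken over a stretch of fixed length, so levels on this scale can be set side by side between genes. In control the order of the means was Jund at 174, Fosb at 123.3, Junb at 122, Fosl2 at 121, Jun at 99.8, Maff at 92.3, Fos at 91.7, Fosl1 at 55.4 and Batf at 15.2. Fosb, Junb and Fosl2 differed by less than the spread between lists, and so did Jun, Maff and Fos. Ranked by fold enrichment, which uses the local background, the order was another. The Fosb promoter ranked above that of Jund in every list. With MMF the Batf promoter (percentile rank 51.8 to 64.6) ranked above that of Fosl1 (24.7 to 29.2). By limma 0 of the 9 were called in either direction, on the signal (1 higher and 0 lower at an unadjusted p under 0.05) or on ranks (0 higher and 3 lower). Of the promoters of all protein-coding genes with a shared region, 2.70% were called higher and 1.12% lower on the signal. Ranks were lower at promoters in general. The median rank score difference was −0.46 at the 9, −0.27 over all these promoters and −0.066 over all shared regions. The mean was higher with MMF at 3 of the 9, Jun, Batf and Maff, and the median log2 difference was −0.10. That is the median of the promoters of all protein-coding genes with a shared region as well (10426 promoters, −0.10, of which 32.8% had a higher mean).

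**Figure D2:**
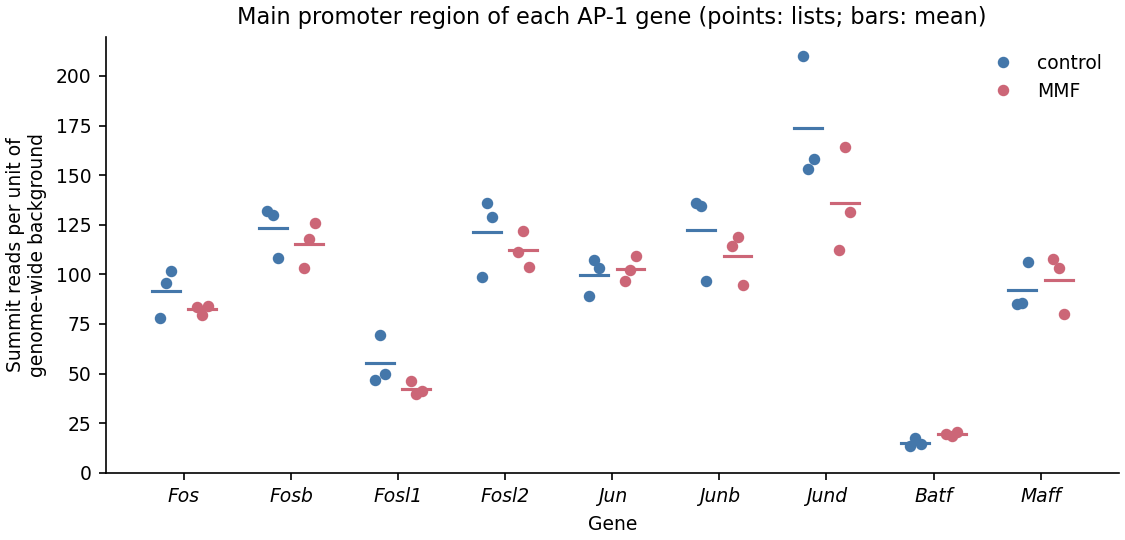
Normalised summit signal (multiples of the genome-wide background, vertical axis) of the main promoter region of each AP-1 gene, with 1 point for each of 3 control (blue) and 3 MMF lists (red) and a bar for the mean. Jund is highest and Batf lowest in both groups, and the points of the groups are apart at Batf, where MMF is higher, and at Fosl1, where it is lower.

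Among the Fos genes, the promoter of Fos, the classical partner of Jun, had a signal of 78.2, 95.5 and 102 in the control lists and 83.6, 79.3 and 84.3 in the MMF lists. The MMF values lay inside the control range, and the log2 difference of −0.15 ± 0.17 (SE) was not called (limma, adjusted p = 0.59). Its promoter carries a TATA box and a GC box. The 150 bases before its start (GRCm38, plus strand, TATAAA and the complement of GGGCGG in capitals) are shown as an example of an immediate-early promoter that was not called.
Fos promoter, chr12:85473740-85473889: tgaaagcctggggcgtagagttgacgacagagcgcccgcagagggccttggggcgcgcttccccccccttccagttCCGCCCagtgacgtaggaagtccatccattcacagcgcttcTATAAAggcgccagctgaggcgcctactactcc
The region 18.5 kb upstream, the strongest around Fos outside its promoter, also overlapped, with a mean of 89.95 in control and 92.7 with MMF. The shared region with the largest difference at Fos lay 5.1 kb upstream (chr12:85468395-85469069), where the signal was 75.5, 76.7 and 64.5 in control and 114, 87.8 and 88.7 with MMF. Every MMF list was above every control list there, yet the difference of 0.42 ± 0.18 (SE) missed the threshold (limma, adjusted p = 0.13). Regions whose groups were apart in this way were 11 of the 60 upwards and 8 downwards, beside 29.1% and 7.68% of all shared regions.

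A larger contrast at Fos lay 15.5 kb downstream of the start (chr12:85489295-85489580), between genes and 12.2 kb past the end of Fos. Being absent from control replicate 1 it was not a shared region, and it is named after its values were seen. The other control lists held it at 17.4 and 20.96 and the MMF lists at 33.0, 56.7 and 51.7. In a fit of all regions with a peak in at least 2 lists of each group, which leaves out the list without a peak, it was 2.41-fold higher with MMF, a log2 difference of 1.27 ± 0.26 (SE; limma, adjusted p = 0.012). The rank test on the same regions gave an adjusted p of 0.080. Its sequence, above, opens with a run of GGT repeats before the TTGCNNAA match.

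At Fosb, a close relative of Fos, the promoter was at 132, 130.2 and 108 in control and 103, 118 and 126 with MMF, and the groups overlapped. The strongest other region, 6.6 kb upstream, had means of 99.98 and 107. The called difference lay 14.0 kb downstream of the Fosb start, in a UTR of the neighbouring gene Rtn2 (chr7:19295872-19296144). Its signal was 45.3, 43.4 and 53.2 in control and 31.9, 34.0 and 31.0 with MMF, with no overlap. It fell by 0.54 ± 0.16 (SE) on the log2 scale (limma, adjusted p = 0.042), and the rank test gave an adjusted p of 0.066. This call did not hold when any 1 list was left out (adjusted p from 0.059 to 0.12). The region 9.3 kb downstream, just past the end of Fosb, is named after its values were seen, since it also had no overlap, with 71.3, 56.4 and 72.6 in control and 51.7, 46.7 and 39.9 with MMF (−0.53, adjusted p = 0.067).

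Upstream of Fosb, in the noncoding gene D830036C21Rik, lay a gained region at 28.8 kb from the start (chr7:19338578-19338978). Its summit held 22, 20 and 22 reads in the MMF lists, a signal of 24.2, 28.3 and 32.5, which is in the lower part of each list by fold enrichment (percentile rank 20.8, 33.7 and 35.1). The nearest start is that of Ercc1, a DNA repair gene, at 5.9 kb. In the printed sequence TGACGTCA is centred 4 bases after the summit and TTGCAAAA lies before it.

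Fosl1 (Fra-1) had the single promoter of the 9 at which all MMF values lay below all control values. Its signal was 46.7, 69.4 and 49.99 in control and 46.2, 39.7 and 41.4 with MMF. The gap between the closest lists was small, and the difference of −0.36 ± 0.19 (SE) was not called (limma, adjusted p = 0.22). The region 2.8 kb upstream of Fosl1 went the other way, from 75.5, 75.2 and 66.1 to 84.7, 93.5 and 109 (0.40, adjusted p = 0.13), also without overlap. The strongest region of this window, 22.4 kb upstream, is the promoter of Drap1 and AI837181, with means of 114 and 103. Fosl2 (Fra-2) had 9 regions, of which 3 were shared. Its promoter had a mean of 121 ± 19.8 (SD, n = 3) in control and 112 ± 9.22 (SD, n = 3) with MMF. The regions 13.3 and 23.1 kb upstream had means of 57.7 and 51.0 in control and 66.4 and 61.6 with MMF and did not pass the test (limma, adjusted p = 0.44 and 0.40). Downstream of its start 4 Fosl2 regions were in MMF lists only, each in 1 or 2 of the 3 lists.

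Among the Jun genes, the promoter of Jun had a signal of 89.2, 107 and 103 in control and 96.8, 102 and 109 with MMF. The difference of 0.04 ± 0.16 (SE) was small beside its error (adjusted p = 0.88). A second region at its promoter, 1.1 kb upstream, was at 54.9, 65.1 and 53.2 in control and 41.8, 45.3 and 48.8 with MMF (−0.35, adjusted p = 0.18), without overlap, and is named after its values were seen. The largest difference at Jun was upwards and lay 23.5 kb upstream in the noncoding gene Junos (chr4:95075474-95076121). There the signal was 22.0, 20.2 and 20.96 in control and 27.5, 34.0 and 28.1 with MMF. Every MMF list was higher, a log2 difference of 0.50 ± 0.16 (SE) just short of the threshold (limma, adjusted p = 0.060). Over the Jun gene itself, summits in the coding exon and a UTR were each in 5 of the 6 lists.

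The Junb promoter, with CCAAT and TATA boxes close to the start, had a mean of 122 ± 22.2 (SD, n = 3) in control and 109 ± 13.0 (SD, n = 3) with MMF, and the groups overlapped. The strongest region of the Junb window, 11.8 kb upstream, is the promoter of Hook2, with means of 137 and 117. The region with the largest downward difference in all 9 windows lay 25.7 kb downstream of the Junb start, in a coding exon of Rtbdn (chr8:84952682-84953258). It went from 24.7, 18.8 and 45.1 in control to 9.90, 15.6 and 17.7 with MMF. The groups did not overlap, but control replicate 3 was far above the other control lists and the difference of −0.98 ± 0.32 (SE) missed the threshold (limma, adjusted p = 0.059). Without that list it was −0.62 (adjusted p = 0.16). With MMF its summits held 9, 11 and 12 reads.

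Jund was the only member at which all shared regions, 7 of 7, had a lower mean with MMF, by a median of −0.28. By limma 0 were called, on the signal before centring or on ranks. At an unadjusted p under 0.05 the signal test had 0 lower and the rank test 3 lower, beside 3.7% and 11.2% of all shared regions. At 2 of the 7 the groups were without overlap, MMF lower, beside 7.68% of all shared regions. Its promoter had a signal of 210, 153 and 158 in control and 112, 164 and 132 with MMF (−0.36 ± 0.20 SE, adjusted p = 0.26). The promoter of Lsm4, an RNA-binding protein gene, lies 25.7 kb upstream and was the strongest region of any window, at 198, 207 and 193 in control and 154, 188 and 146 with MMF (−0.30, adjusted p = 0.25). Of the 1759 shared regions with a mean signal of 128 or more, the range of these 2 promoters, 12.6% had a higher mean with MMF. The share was 77.0% for a signal from 16 to 32, the range of the regions 16.1 kb upstream and 19.5 and 22.0 kb downstream of Jund. From 32 to 64, the range of that 31.3 kb downstream, it was 69.1%. From 64 to 128, the range of that 3.5 kb upstream, it was 40.7%. The largest difference in the Jund window was at a weak region 19.5 kb downstream, the promoter of Gm3336, with means of 24.2 and 18.5.

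**Figure D3:**
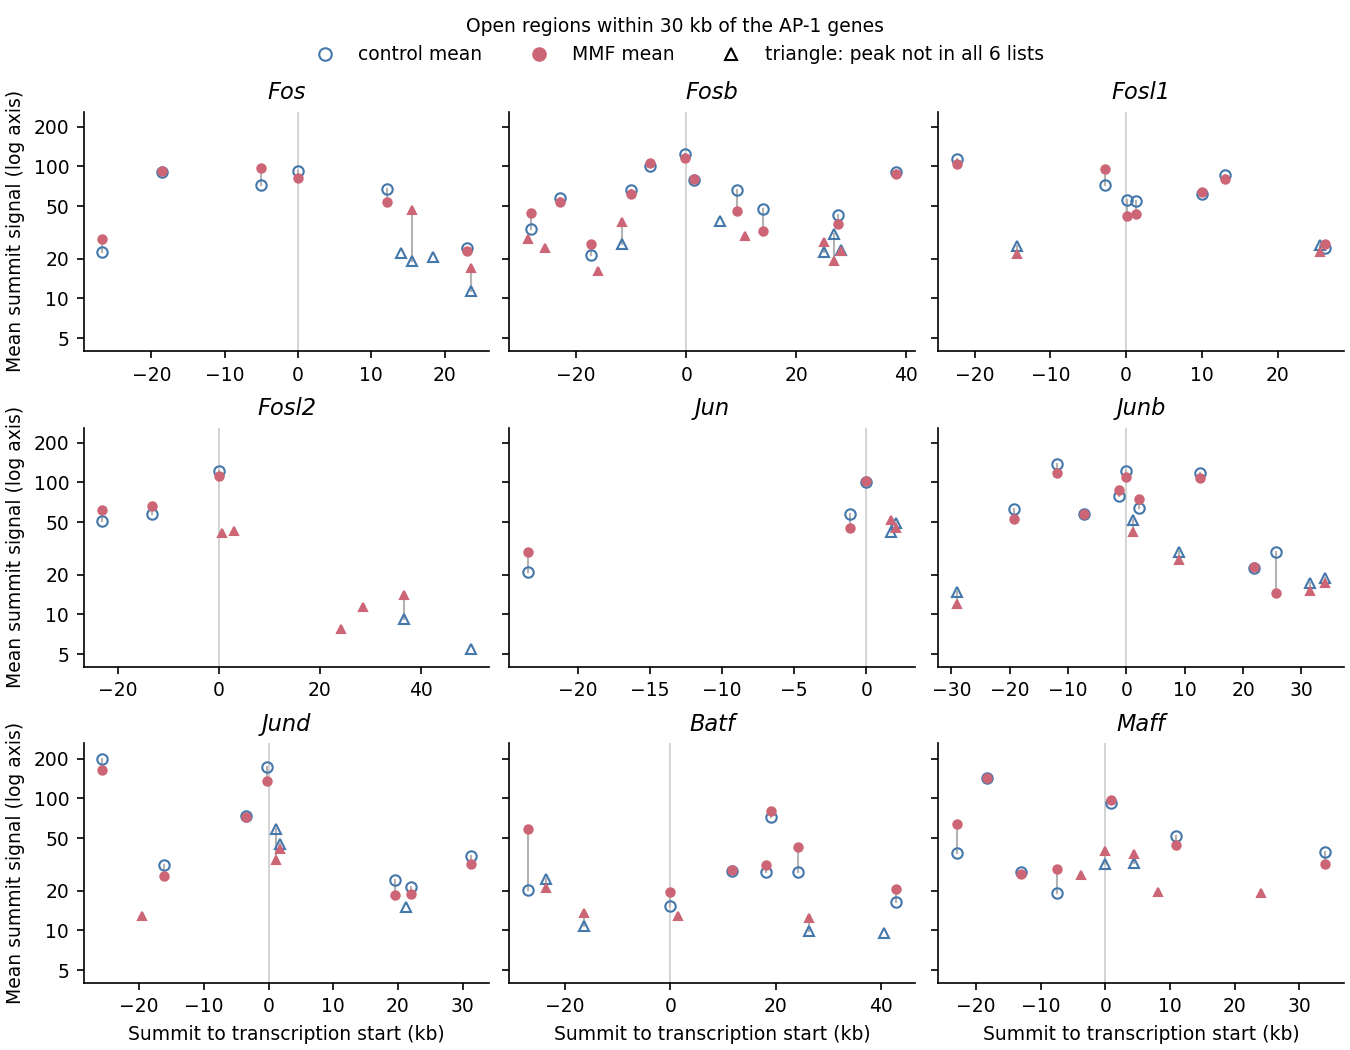
Each panel shows the regions of 1 gene. The horizontal axis is the distance of the summit from the transcription start in kb, downstream positive, and the vertical axis is the mean normalised summit signal on a log axis, open blue for control and filled red for MMF, with circles for shared regions and triangles for regions without a peak in all 6 lists (mean of the lists that held it). The grey lines joining the means are longest 27.1 kb upstream of Batf and 15.5 kb downstream of Fos, and red lies below blue at all 7 circles of Jund.

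At Batf all 7 of its shared regions had a higher mean with MMF, by a median of 0.33. At 4 of them the groups were without overlap, MMF higher, beside 29.1% of all shared regions. Of the 7, 5 lay above the median difference of all shared regions. Centring each list on its median lowers every difference by the same amount. After it the regions 11.6, 18.1, 19.0 and 42.9 kb downstream, at 0.034, 0.19, 0.15 and 0.33 before, had a lower mean with MMF. The rise at all 7 thus depends on the scaling. Weakly open regions had higher means over the genome as well, since 77.0% of the 15148 shared regions with a mean signal from 16 to 32, the range of 4 of the 7, had a higher mean with MMF, with a median of 0.36. The largest difference of all 60 shared regions lay 27.1 kb upstream of its start (chr12:85659321-85660099), between genes. Its signal was 22.0, 17.4 and 20.96 in the control lists and 51.7, 65.2 and 59.1 in the MMF lists. The means were 20.1 ± 2.42 (SD, n = 3) and 58.7 ± 6.75 (SD, n = 3), a 2.92-fold rise and a log2 difference of 1.55 ± 0.18 (SE; limma, adjusted p = 0.0012). The summit held 16, 12 and 13 reads in control and 47, 46 and 40 with MMF. Its percentile rank was 37.1 to 46.4 in the control lists and 83.1 to 90.2 in the MMF lists, and the rank test called it as well (limma on rank scores, adjusted p = 0.034). On the signal it was called in every alternative fit, including each with 1 list left out (log2 difference from 1.44 to 1.63). On ranks the call was lost with any 1 list left out, when 0 of all shared regions were called.

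This region lies on the stretch of chromosome 12 that holds 3 AP-1 related genes in a row, Fos, Jdp2 and Batf. Jdp2, a repressor that pairs with Jun, ends 19.7 kb before the summit, while the Batf start, 27.1 kb away, is the nearest start of a protein-coding gene. The Jdp2 promoter had a signal of 52.1, 47.7 and 59.7 in control and 67.1, 45.3 and 47.3 with MMF and was not called (adjusted p = 0.97). The Batf promoter itself was weakly open, at 13.7, 17.4 and 14.5 in control and 19.8, 18.4 and 20.7 with MMF. Every MMF list was higher, though the summits held between 9 and 18 reads and the difference of 0.38 ± 0.17 (SE) was not called (limma, adjusted p = 0.15). An intronic region 19.0 kb downstream was the strongest at Batf, with overlapping values and means of 72.1 and 79.9. Past the end of the gene, 24.2 kb downstream of the start, a region named after its values were seen went from 19.2, 36.2 and 27.4 to 36.3, 46.7 and 44.3 (0.66, adjusted p = 0.077). The letters TGACTCA were found in 0 of the 12 Batf regions.

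Maff had the largest difference in the number of peaks, with 8, 7 and 8 in the control lists and 12, 10 and 11 in the MMF lists (exact permutation test, two-sided, p = 0.1, the lowest possible here). That is 1.43 times as many, close to the 1.37 times by which the whole MMF lists were longer. Its promoter region, with its summit 0.9 kb inside the gene in a UTR, overlapped between groups, at 85.1, 85.3 and 106 in control and 108, 103 and 79.8 with MMF (0.07, adjusted p = 0.84). A smaller peak at the start itself was in 1 control list and all 3 MMF lists. The region 7.5 kb upstream (chr15:79338916-79339489) was at 16.5, 20.2 and 20.96 in control and 33.0, 26.9 and 28.1 with MMF. It was 1.53-fold higher without overlap, a log2 difference of 0.61 ± 0.18 (SE; limma, adjusted p = 0.035), but its rank did not pass (adjusted p = 0.51). Without control replicate 1, control replicate 2, or any of the MMF replicates the call was lost (adjusted p from 0.061 to 0.12), and without control replicate 3 it was kept (0.048). It was also lost after centring, where the difference was 0.26 (adjusted p = 0.29).

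The region with the largest difference at Maff lay 23.0 kb upstream in an intron of the phospholipase gene Pla2g6 (chr15:79323415-79323773), at 46.7, 43.4 and 25.8 in control and 55.0, 73.7 and 62.1 with MMF (0.76 ± 0.24 SE; limma, adjusted p = 0.051). Control replicate 3 was the low value, and without it the difference was 0.49 (adjusted p = 0.14). The nearby Pla2g6 promoter, 18.3 kb upstream of Maff and the strongest region of the window, had a mean of 143 in both groups. The gained region of this window lay 24.0 kb downstream in an intron of Tmem184b (chr15:79370287-79370762), with a signal of 15.4, 22.7 and 19.2 on 14, 16 and 13 reads.

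**Figure D4:**
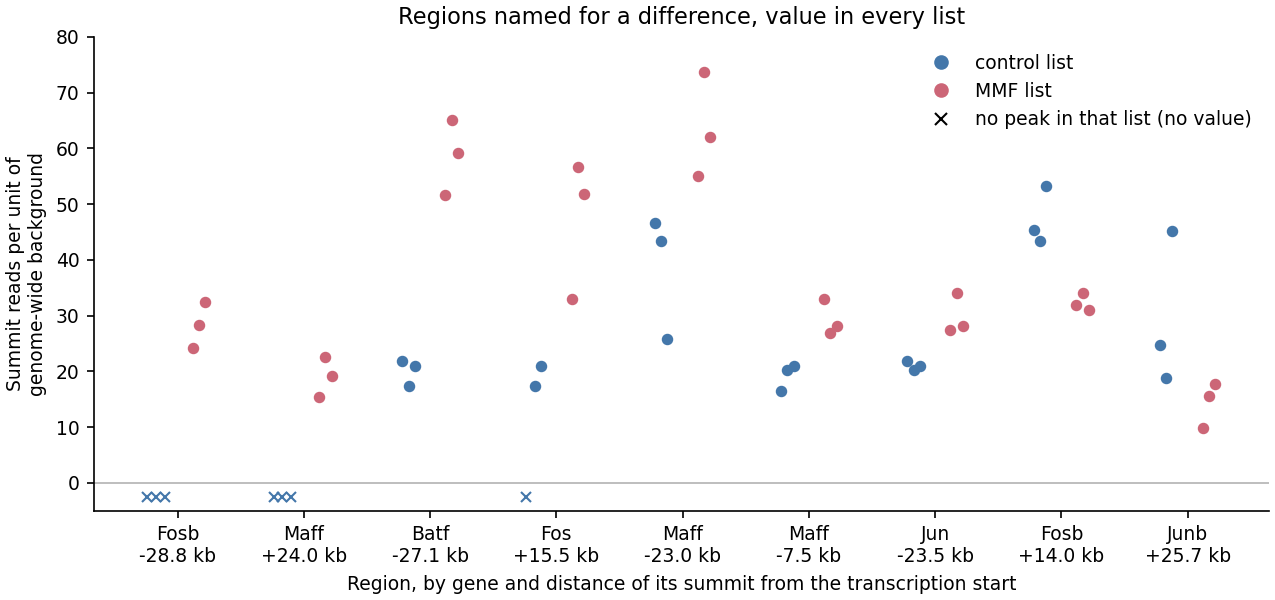
Normalised summit signal (multiples of the genome-wide background, vertical axis) in every control (blue) and MMF list (red) at 9 regions named by gene and by distance of the summit from the start; crosses below 0 stand for lists with no peak, which have no value. The groups are far apart upstream of Batf, where control lists end at 22.0 and MMF lists begin at 51.7, and closer together at the other regions with values in both groups, and MMF is lower downstream of Fosb and of Junb.

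The number of peaks in the 9 windows together was 83, 78 and 81 in the control lists and 90, 90 and 87 in the MMF lists. Each MMF list held more, and the means of 80.7 ± 2.52 (SD, n = 3) and 89.0 ± 1.73 (SD, n = 3) differed by 8.33 (two-sided exact permutation test, p = 0.1, the lowest value possible with 3 lists against 3). This is 1.10 times as many, while the whole MMF lists were 1.37 times as long as the control lists. With every list trimmed to the 58496 peaks of lowest p, the AP-1 windows had 3.33 fewer peaks with MMF (exact permutation test, p = 0.3). Outside promoters of any gene, 20 of 36 shared AP-1 regions had a higher mean with MMF, beside 76.1% of the 29626 such regions of the genome. The count was 5 of 13 at promoters of the members and 2 of 11 at promoters of other genes, beside 34.8% of 11556 shared regions at promoters.

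Both strands of the 200 bp around each summit were searched for motifs, of which GAGGAAGT and CCGGAAGT share their last 6 letters. The AP-1 letters TGACTCA were in 11 of the 102 AP-1 regions (10.8%) and in 13.2% of all regions. TGACGTCA, the CRE, was in 3 (2.94% against 0.723% of all), namely the Jund promoter, the Maff promoter and the gained region upstream of Fosb. The CArG box, bound by SRF, was in 3 (2.94% against 1.11%), at the Fosb promoter, 2.1 kb downstream of the Junb start and 12.2 kb downstream of the Fos start. TTGCNNAA was in 17 (16.7% against 15.0%). The 12 shared regions among these had a higher mean with MMF in 8 cases and a median log2 difference of 0.15. Over the genome the 5986 shared regions with these letters had a median of 0.45, and 83.0% of them had a higher mean. Of the 5986, 33.9% were called higher, against the 18.6% of all shared regions. The regions upstream of Batf, downstream of Fos, 7.5 kb upstream of Maff, 23.5 kb upstream of Jun and 2.8 kb upstream of Fosl1, described above, hold them. So do 4 shared regions with a lower mean. They are the Fosl1 promoter, those 9.3 and 38.2 kb downstream of the Fosb start and that 18.3 kb upstream of Maff. GAGGAAGT was in 3 regions, all in the Maff window (2.94% against 8.28%), AACCACA for RUNX in 7 (6.86% against 10.7%), CCGGAAGT for ETS in 1 (0.980% against 1.30%) and the CTCF motif in 3 (2.94% against 5.95%). The region 27.1 kb upstream of Batf also holds AACCACA, 80 bp from its summit and just outside the printed bases. All 4 shared regions with AACCACA had a higher mean (median 0.36), beside 79.0% of the 4257 over the genome (median 0.36).

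The 300 bases before each start were searched as well, for exact letters only, so variant sites and sites further upstream are not counted. TGACTCA was in 0 of the 9 (4.61% of 21938 promoters of protein-coding genes) and TGACGTCA was in the Jund promoter, between 214 and 207 bases before the start (2.03% of all promoters). The Fosb promoter held a CArG box between 266 and 257 bases before the start (1.57% of all). The GC box (GGGCGG) was in 7 of the 9 (40.4% of all), that is in all but Junb and Maff. The CCAAT box was in 3 (39.8%), Jun, Junb and Jund. The TATA box (TATAAA) was in 3 (13.7%), Fos, Junb and Fosl1, and lay between 33 and 28 bases before the start of Fos and between 30 and 25 before that of Junb, the usual place for a TATA box. The 150 bases before 3 of these starts are read on the strand of the gene, with these 3 motifs in capitals on either strand. They show the promoter of highest signal, Jund, the immediate-early promoter of Junb and the promoter of lowest signal, Batf.
Jund, plus strand, chr8:70698799-70698948: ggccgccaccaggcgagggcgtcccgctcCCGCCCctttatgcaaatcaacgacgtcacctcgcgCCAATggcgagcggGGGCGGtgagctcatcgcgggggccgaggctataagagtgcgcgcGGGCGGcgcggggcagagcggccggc
Junb, minus strand, chr8:84978719-84978868: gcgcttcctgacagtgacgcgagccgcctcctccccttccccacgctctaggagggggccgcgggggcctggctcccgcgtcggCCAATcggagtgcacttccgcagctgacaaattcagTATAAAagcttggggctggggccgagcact
Batf, plus strand, chr12:85686519-85686668: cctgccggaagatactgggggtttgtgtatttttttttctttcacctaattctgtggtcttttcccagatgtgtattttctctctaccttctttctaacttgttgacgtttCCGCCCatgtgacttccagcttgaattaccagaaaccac

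The promoters of 2 other groups of genes were read from the same fits. Of 14 genes of related bZIP proteins that pair with AP-1 or share its sites, 11 had a shared promoter region, limma called 0 in either direction (1 at an unadjusted p under 0.05, and 5 on ranks) and the median log2 difference was −0.02. Of 11 immediate-early genes such as Egr2, Ier2 and Dusp1, 10 were shared, limma called 0 (unadjusted 0, and 2 on ranks) and the median was −0.15. Over the promoters of all protein-coding genes 2.70% were called higher and 1.12% lower.

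Markers of cell types were checked by their promoter regions. The progenitor genes Kit, Spi1 and Cebpa had a shared region and Mpo and Prtn3 had none in any list, while 6 of 8 progenitor markers had a region in at least 1 list. T cell markers had 0 of 4 and B cell markers 1 of 4, Ebf1. The Ebf1 region was shared and higher with MMF, with means of 24.9 and 34.6 (0.49, limma, unadjusted p = 0.045, adjusted p = 0.14). Erythroid markers had 3 of 4, megakaryocyte markers 3 of 3 and stromal markers 3 of 4. Their 5 shared regions, at Klf1, Pf4, Itga2b, Col1a1 and Pdgfra, all had a lower mean with MMF, by −0.12 to −0.43 on the log2 scale, and limma called 0 (adjusted p from 0.14 to 0.74; 1 at an unadjusted p under 0.05, and 2 on ranks). Lower means were common at promoters, since 32.8% of the promoters of all protein-coding genes with a shared region had a higher mean. Mature monocyte markers had 3 of 4, of which Adgre1 had means of 20.1 and 28.9 (0.53, limma, adjusted p = 0.15), Cd14 had 17.2 in both groups and Csf1r, in 2 control and 3 MMF lists, had 12.7 and 33.8. Among mature neutrophil markers, the Camp promoter went from 24.7, 11.6 and 27.4 to 61.6, 62.3 and 56.2 (1.59, limma, adjusted p = 0.0055), Ngp was in 2 control and 3 MMF lists, Ltf was gained and Mmp9 had no region. The part of a shift in cell stage in the differences at Batf, Maff, Fos and Fosb was not tested, and more open chromatin per cell and more cells with it cannot be told apart in such bulk samples.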

How the data were processed

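ATAC-seq peak lists of 3 control and 3 MMF samples were analysed. Per the labels, the authors processed the reads with FastQC, Trim Galore, Bowtie2 (mm10) and MACS2. Each deposited list gives a fold enrichment (a ratio of summit reads to local background) and −log10 p and −log10 q for every peak, and its score was not used. The lists were called per sample, so a region without a peak has no value. Reads and the local background were solved from the fold enrichment and p, and at least 99.989% of the peaks in each list gave whole reads (gap in −log10 p under 0.01). The median summit held 14 to 19 reads, and the genome-wide background, which scales with depth, was 0.620 to 0.729 reads in control and 0.676 to 0.909 with MMF. Total read depth is not given in these lists. Lists were restricted to 21 chromosomes, which left out at most 0.270% of peaks. Overlapping peaks were merged, with 1 bp as the minimum overlap.

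Differences were tested with limma 3.58.1 (R 4.3.3, lmFit and eBayes, no block), at an adjusted p of 0.05, and single values with exact permutation tests. A promoter reached 1000 bp to each side of a start. Sequences were read from GRCm38.p6 with pysam 0.24.0. Scripts used Python 3.11.15 and were tested on simulated data. Regions were named if they were the main promoter region of a member, gained or lost, past the threshold in either test, the strongest outside the promoter, or the shared region with the largest difference. Other regions named are said to be so. The 9 members and the gene lists were chosen with earlier results of these data known, and the result of 1 list is not reported here. Alternatives covered list length, a stricter q, overlap, fixed windows, the number of lists required, window size, centring, ranking by p, the motif window, each sample left out and the replicate number as a block. The authors' read-based differential analysis was not repeated here. The methods and a figure legend differ on dose and time, and the labels' time is used.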

Additional observations from a re-analysis of the deposited data

How the results depend on the processing

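The region 27.1 kb upstream of Batf was called higher on the signal under all alternatives run. Counts moved as follows. Gained regions numbered 5 when 2 lists of one group and none of the other sufficed, 0 in 10 kb windows and 9 in 100 kb windows. Lost regions numbered 1 at equal list length, 1 with that rule of 2 lists and 2 when peaks had to cover at least 50% of a region, an alternative chosen after seeing the data because the planned overlap of 50% changes nothing in merged regions. Shared regions numbered 32 in 10 kb and 151 in 100 kb windows. On the signal, centring gave 1 higher and 12 lower, equal list length 4 and 2, and regions in at least 2 lists per group 0 lower. On ranks, regions in at least 2 lists per group gave 0 higher, equal list length 3 lower and ranking by −log10 p 2 lower. The difference in peaks per list was −3.33 at equal list length. In a motif window of 500 bp the C/EBP letters were in 25.5% and the RUNX letters in 14.7% of AP-1 regions. With each sample left out in turn, gained regions numbered 2 to 4, lost 0 to 1, shared 61 to 64, signal calls 1 to 3 higher and 0 to 1 lower, rank calls 0 in both directions, and the difference in peaks 7.0 to 9.5.

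Among the regions named by the stated rules, centring turned 7 differences that had not been called negative. They were −0.31 at the Jun promoter, −0.081 and −0.14 for the regions 23.1 and 13.3 kb upstream of Fosl2 and −0.27 for that 6.6 kb upstream of Fosb. The others were −0.30 for the region 18.5 kb upstream of Fos, −0.21 for that 19.0 kb downstream of Batf and −0.29 at the Maff promoter. Centring lowers every difference by the same amount, so other shared regions with small upward differences turned as well. Those 11.6 and 18.1 kb downstream of Batf (0.034 and 0.19 before centring) are examples. Among the regions named by rule, leaving out 1 sample turned the Jun promoter (lowest −0.035, highest 0.10) and the region 6.6 kb upstream of Fosb (−0.058 to 0.18). It also turned the region 18.5 kb upstream of Fos (−0.057 to 0.16), that 18.3 kb upstream of Maff (−0.10 to 0.087) and the Maff promoter (−0.014 to 0.20). The deviations of equally numbered samples were uncorrelated (−0.0013, 0.0039 and −0.0026), so the numbers were not taken as pairs. With the replicate number as a block the signal test called 2 higher (27.1 kb upstream and 24.2 kb downstream of Batf) and 1 lower (25.7 kb downstream of Junb), and the rank test 0 of all regions. Weak regions rest on about 10 to 20 summit reads, and a missing peak is a threshold and not a measured 0.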

Other observations

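Across whole lists, the share of peaks with TGACTCA within 200 bp around the summit was 13.7%, 13.8% and 13.9% in control and 13.5%, 13.4% and 13.4% with MMF, a difference of −0.35 percentage points (two-sided exact permutation test, p = 0.1, the lowest value possible with 3 against 3). At equal list length it was −0.13 points (exact permutation test, p = 0.1). The 5927 shared regions with these letters had a median log2 difference of 0.27, 19.0% of them were called higher and 0.844% lower, close to the 18.6% and 0.969% of all shared regions. Letters of a site do not show that a protein is bound.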
